A study of Homo sapiens with 9 samples.

Results

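The genes described here carry TIMM and TOMM names, and most encode the TOM and TIM machinery of mitochondrial protein import. TIMMDC1, a complex I assembly factor, and TOMM34, a cytosolic co-chaperone, are included in the counts. After piericidin A 16 of 22 tested rose at 25 nM and 14 at 50 nM, where 26.3% and 29.2% of all tested genes rose. Of the 22, 13 rose at both doses, which share the DMSO libraries, and the share over all genes was not counted. The genes of 2 import receptors, TOMM20 and TOMM70A, fell at both doses. The number that rose at 50 nM depended on the processing, as did the share of all tested genes. On the deposited FPKM 14 rose, against 29.2% of all tested genes. Libraries scaled to equal FPKM sums gave 9 against 20.4%, and libraries scaled to fragment totals gave 16 against 34.1%. The TIM and TOM genes were taken as the protein-coding rows of the deposited log2 table whose symbol starts with TIMM or TOMM, which gave 23 of 18859 genes. The samples were ACHN cells, an adherent human renal cell carcinoma line grown in MEM, and RNA was sequenced in 3 libraries per group, from cells given the solvent (0.1% DMSO) or piericidin A at 25 nM or at 50 nM. Piericidin A blocks respiratory complex I at its quinone site. The labels do not say how long the cells were treated, whether the treated cells also held DMSO, or whether a group's 3 libraries came from different cultures. The p-values therefore measure only the spread between these libraries, which may be technical. All libraries come from 1 cell line, and in bulk RNA fewer cells of a kind and less RNA per cell cannot be told apart.

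Most mitochondrial proteins are made in the cytosol and enter through the TOM complex of the outer membrane, where receptors hand precursors to the TOMM40 pore. Precursors with a cleavable presequence then pass the TIM23 channel of the inner membrane, driven by the membrane potential that the respiratory chain sustains and by an ATP-driven motor in the matrix. Metabolite carriers take another route, in which small TIM chaperones of the intermembrane space escort them to the TIM22 translocase.

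Recovered fragments numbered 24365472 to 29245674 per library, and a tested TIM or TOM gene held between 134 (TIMM8A) and 18072 (TOMM20) of them in a library. Replicates of a group differed by more than counting error (chi-square per degree of freedom 1.79 to 2.498 in DMSO, where counting error gives about 1, and 5.09 to 8.49 at 50 nM). The 25 nM replicate 3 stood apart, at 17.2 and 19.6 against the other 2 libraries of its group, which differed by 2.48. That library held the highest level of its group in 17 of the 22 tested TIM and TOM genes, so counts are also given without it. Renal epithelial markers were present (7 of 7, summed 275 to 313 FPKM, a level scaled to gene length and to library size). Endothelial markers (3 of 3 listed) summed to 0.004 to 0.03 FPKM and the 2 listed of 4 leukocyte markers to 0.039 to 0.192 FPKM. The 5 fibroblast markers summed to 2.33 to 3.85 FPKM, with COL1A1 and PDGFRB as the 2 that reached 0.5 FPKM. Mitochondrially encoded genes took 2.53 ± 0.182%, 4.36 ± 0.668% and 5.93 ± 0.831% of fragments (SD, n = 3) in DMSO, 25 nM and 50 nM, and the part of this in the results below was not tested.

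Of the 23 genes, 22 passed the filter of at least 0.5 FPKM in at least 3 libraries. TOMM5, a small TOM subunit, did not, at 0.0752 to 0.161 FPKM from 8 to 16 fragments per library. Of its exonic bases in GENCODE release 29, 18.7% are shared on the same strand with AL138752.2 and AL513165.2. How the authors counted reads that fall on overlapping genes is not given, so this low value may not be the level of TOMM5. Fold changes are on the log2(FPKM + 0.1) scale from limma, with p-values adjusted by the Benjamini-Hochberg method over 15541 genes, and a gene was called at an adjusted p under 0.05. At 25 nM 16 of the 22 rose and 3 fell, where 26.3% of all tested genes were called higher and 25.8% lower (52% in either direction). At 50 nM 14 rose and 3 fell, against 29.2% higher and 31.5% lower (60.7% in either direction) over all genes. All treated libraries lay above all DMSO libraries in 16 of the 22 genes at 25 nM and below them in 3 (TOMM20, TOMM70A and TOMM40L), against 31.5% and 31.1% of all tested genes (62.6% together). At 50 nM these counts were 14 and 3, against 33.9% and 36.5% (70.4% together). The median log2 fold change was 0.36 at 25 nM and 0.29 at 50 nM, where over all tested genes it was 0.02 and 0.0049. Both doses were set against the same DMSO libraries. The same 16 and 3 genes were called at 25 nM without replicate 3 of that dose, where 24.9% of all tested genes rose and 25.3% fell.

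**Figure D1:**
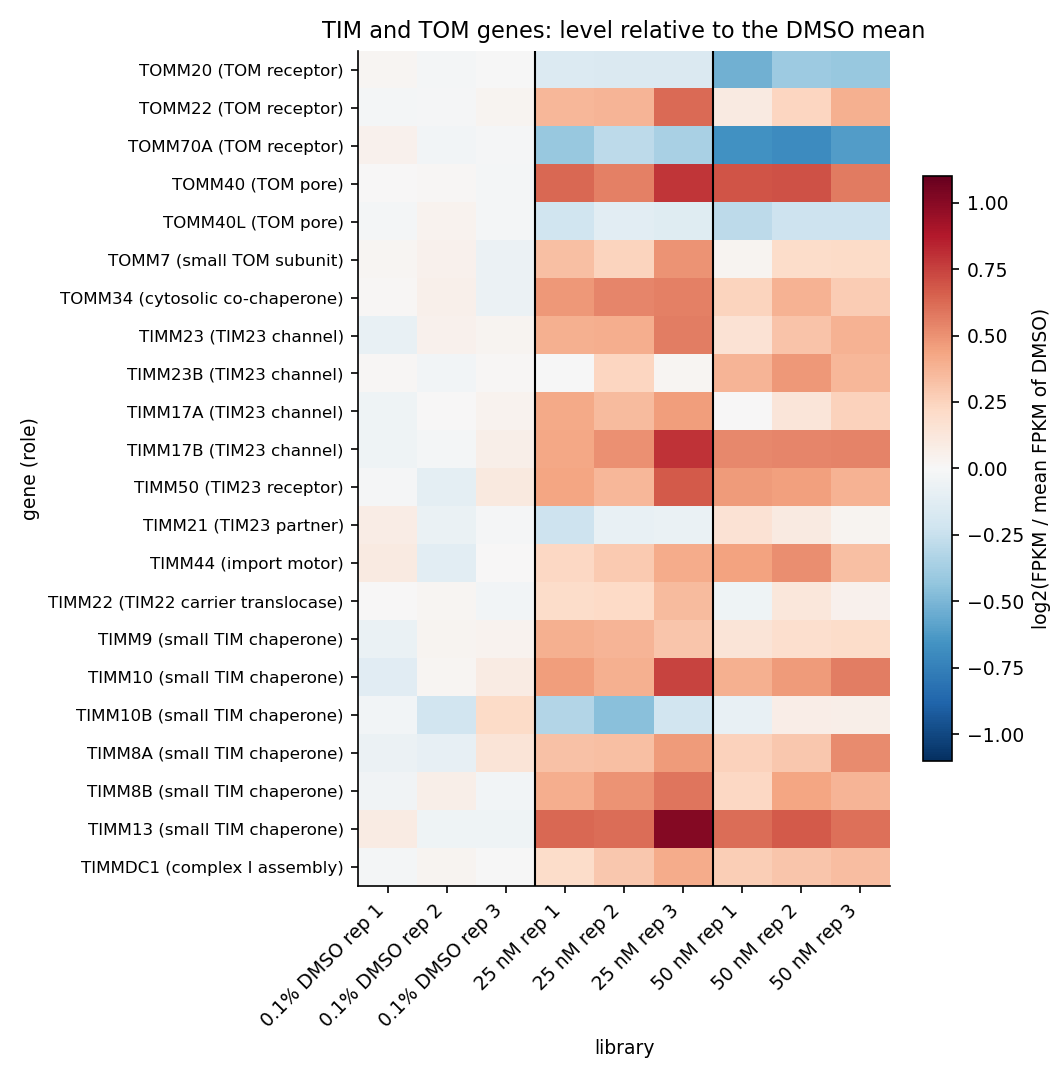
Heat map of the 22 tested TIM and TOM genes (vertical axis, with their role) in the 9 libraries (horizontal axis). Colour gives log2 of a library's FPKM over the mean FPKM of DMSO. TOMM20 and TOMM70A turn blue with dose while TOMM40, TIMM17B and TIMM13 are red in all 6 treated libraries, and the 25 nM replicate 3 is the strongest red in many rows.

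A gene set that is short and a scaling between libraries both bear on these counts. The median gene length was 3041 bases in the 23 genes and 4997 in all protein-coding genes of the table, and 14 of the 22 tested lay in the shortest 25% of tested coding genes. In those 11722 coding genes length and log2 fold change had a Spearman correlation of -0.370 at 25 nM and -0.253 at 50 nM, over genes that share the libraries. After a correction for length within each library, 15 rose and 4 fell at 25 nM and 10 rose and 3 fell at 50 nM, with medians of 0.24 and 0.14, against 0.02 and -0.03 in coding genes. Of all genes in that fit 28.6% were called higher and 25.4% lower at 25 nM, and 30.4% and 30.8% at 50 nM. Scaling the libraries to equal sums of FPKM moved the median of all genes to -0.17 at 25 nM and -0.16 at 50 nM. On that scale 12 rose and 5 fell at 25 nM, 9 rose and 4 fell at 50 nM, and the medians of the TIM and TOM genes were 0.16 and 0.12. Of all tested genes 14.2% were then called higher and 40.2% lower at 25 nM, and 20.4% and 43.2% at 50 nM.

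**Figure D2:**
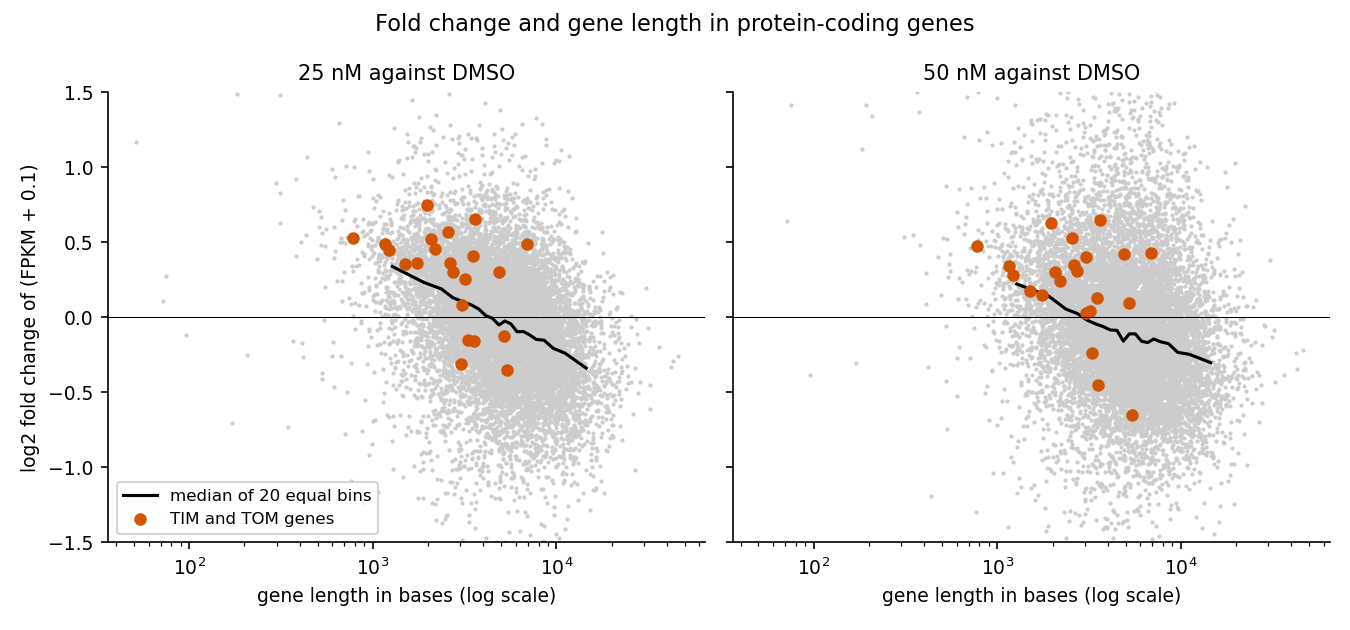
Log2 fold change of (FPKM + 0.1) against gene length in bases (log axis) for 11722 protein-coding genes (grey), with the median of 20 equal bins (line) and the 22 TIM and TOM genes (orange), at each dose against DMSO. Shorter genes stand higher, and most TIM and TOM genes lie above the line. The vertical axis stops at a size of 1.5 in either direction, which leaves out 43 genes at 25 nM and 162 at 50 nM.

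Promoter sequences are shown for 4 of these genes because TOMM20 and TOMM70A fell and TOMM40 and TIMM13 rose most at both doses among genes of at least 5 FPKM. They are the 250 bases before the RefSeq start (GRCh38.p14), 5′ to 3′ on the gene's strand, with matches to the searched motifs in capitals. RefSeq lists TOMM70A as TOMM70. The windows are chr1:235128838-235129087 (minus strand) for TOMM20, chr3:100401090-100401339 (minus strand) for TOMM70, chr19:44891004-44891253 (plus strand) for TOMM40 and chr19:2427587-2427836 (minus strand) for TIMM13. Those of TOMM70, TOMM40 and TIMM13 lie inside the authors' interval of the gene, and that of TOMM20 overlaps it in part. Motif distances below are therefore from the RefSeq start, not from the start of the authors' interval.
TOMM20: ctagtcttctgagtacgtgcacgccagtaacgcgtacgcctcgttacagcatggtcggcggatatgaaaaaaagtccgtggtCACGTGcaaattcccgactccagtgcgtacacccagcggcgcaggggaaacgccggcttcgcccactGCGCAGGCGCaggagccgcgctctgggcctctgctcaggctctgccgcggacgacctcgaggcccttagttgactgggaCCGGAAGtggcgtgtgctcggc
TOMM70: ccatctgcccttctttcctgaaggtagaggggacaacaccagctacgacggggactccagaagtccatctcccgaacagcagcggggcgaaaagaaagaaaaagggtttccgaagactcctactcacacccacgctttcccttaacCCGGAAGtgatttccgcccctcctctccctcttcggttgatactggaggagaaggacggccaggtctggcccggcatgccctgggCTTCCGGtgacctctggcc
TOMM40: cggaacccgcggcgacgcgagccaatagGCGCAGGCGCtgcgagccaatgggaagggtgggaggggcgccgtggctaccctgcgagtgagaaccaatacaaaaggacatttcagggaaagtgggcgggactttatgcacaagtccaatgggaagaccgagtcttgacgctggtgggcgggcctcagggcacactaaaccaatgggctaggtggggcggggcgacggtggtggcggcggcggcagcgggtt
TIMM13: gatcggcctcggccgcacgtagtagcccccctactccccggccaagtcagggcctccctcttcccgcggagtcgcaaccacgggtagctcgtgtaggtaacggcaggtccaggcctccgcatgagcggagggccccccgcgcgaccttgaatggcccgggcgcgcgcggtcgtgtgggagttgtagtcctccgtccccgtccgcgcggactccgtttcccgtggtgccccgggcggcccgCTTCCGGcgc

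The letters searched, on both strands, were GCGCA and GCGC with 1 base of any kind between them for NRF1, and CCGGAAG for ETS factors such as GABP, which are known regulators of nuclear genes for mitochondrial proteins. For the heat shock element they were GAA, TTC and GAA, or TTC, GAA and TTC, each 2 bases apart. The others were TGATGCAA for the ATF4 composite element, CACGTG for the E-box and AAGATGGCG for YY1, and no 2 matches in these genes overlapped. Of the 23 genes, 21 had a promoter in the table, and TOMM5 and TIMM8B did not. CCGGAAG was found in 8 of 21 (38.1%) and in 8.81% of 27305 promoters of the same length. Those promoters were not selected by gene type, while all 21 genes are protein-coding. It lay 22 bases before the start in TOMM20, 104 and 19 bases before it in TOMM70 and 10 bases before it in TIMM13, so genes that fell and genes that rose both hold it. The other genes with it were TIMM23, TIMM23B, TIMM10, TIMM10B and TIMMDC1. The windows of TIMM23 and TIMM23B are near copies of each other, so these are not separate finds. The NRF1 letters were found in 4 of 21 (TOMM20, TOMM40, TOMM7 and TOMM34) and in 5.53% of all promoters. They began 101 bases before the start in TOMM20 and 222 bases before it in TOMM40. The heat shock element letters were in 0 of 21 and in 0.439% of all promoters, which says only that these letters are not in these windows. The E-box was in TOMM20 (6.49% of all promoters), the ATF4 letters in TIMM22 (0.82%) and the YY1 letters in TOMM40L (0.641%). The members' windows also had more G and C than most, with a median of 63.6% against 58.0%, and matches are a description of these letters only.

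TOMM20 is the receptor that binds presequences, and it had the highest level per length of the 23 genes. The gene (ENSG00000173726, chromosome 1, 235109336-235128936, hg38) stood at 178, 173 and 175 FPKM in DMSO, at 158, 157 and 157 FPKM at 25 nM and at 121, 133 and 131 FPKM at 50 nM. The 3 groups did not overlap, and the level was lower at each higher dose. The log2 fold change was -0.16 (SE 0.04, limma adjusted p = 0.0125) at 25 nM and -0.45 (SE 0.04, limma adjusted p = 2.43e-05) at 50 nM, and 50 nM lay 0.29 below 25 nM on the log2 scale (log2 fold change -0.29, limma adjusted p = 0.00127). Without DMSO replicate 1 the fall at 25 nM was not called (log2 fold change -0.14, limma adjusted p = 0.0509). TOMM20 took 31.6 ± 0.532% of the summed FPKM of the 23 genes with DMSO (SD, n = 3), then 24.0 ± 1.33% with 25 nM and 22.2 ± 0.248% with 50 nM.

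TOMM70A encodes TOM70, the receptor that docks HSP70 and HSP90 and takes in carrier precursors. It (ENSG00000154174, chromosome 3, 100363431-100401398) stood at 19.8, 18.8 and 19.1 FPKM in DMSO, at 14.4, 15.8 and 15.04 FPKM at 25 nM and at 12.1, 11.9 and 12.6 FPKM at 50 nM. Again no group overlapped another. Its log2 fold change was -0.35 (SE 0.05, limma adjusted p = 2.72e-04) at 25 nM and -0.65 (SE 0.05, limma adjusted p = 4.89e-06) at 50 nM, the largest fall of the 22 at each dose. The 50 nM level was below the 25 nM level (log2 fold change -0.30, limma adjusted p = 0.00164).

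TOMM22, the central receptor that also organises the complex, went the other way. It (ENSG00000100216, chromosome 22, 38681948-38685421) stood at 32.7, 32.8 and 33.8 FPKM in DMSO, at 42.7, 42.9 and 50.9 FPKM at 25 nM and at 35.4, 38.9 and 43.3 FPKM at 50 nM. All treated libraries lay above all DMSO libraries, while the doses overlapped. The log2 fold change was 0.45 (SE 0.08, limma adjusted p = 0.00188) at 25 nM and 0.24 (SE 0.08, limma adjusted p = 0.0335) at 50 nM. The call at 50 nM was lost without any 1 DMSO library, without the 50 nM replicate 2 or 3, after the length correction, with no filter on low values and on the scale of equal FPKM sums, with limma adjusted p from 0.0610 to 0.327 in these fits. Between the doses TOMM22 was not called (log2 fold change -0.21, limma adjusted p = 0.0826), but was without the 50 nM replicate 3 (-0.29, limma adjusted p = 0.0329), with the filter of 5 FPKM, on the scale of equal FPKM sums, with limma voom and with the replicate block (limma adjusted p from 0.0305 to 0.0478).

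TOMM40 forms the pore. It (ENSG00000130204, chromosome 19, 44890569-44903689) rose from 15.8, 15.8 and 15.5 FPKM in DMSO to 24.3, 23.1 and 27.1 FPKM at 25 nM and 25.3, 25.4 and 23.3 FPKM at 50 nM. The treated libraries did not overlap DMSO, and the doses overlapped each other. It changed by a log2 fold change of 0.66 (SE 0.06, limma adjusted p = 4.71e-05) at 25 nM and 0.65 (SE 0.06, limma adjusted p = 2.38e-05) at 50 nM. Between the doses it was -0.01 with a 95% confidence interval of -0.14 to 0.13. Words of 50 bases from TOMM40 transcripts were found in transcripts of other genes for 10.8% of words, so part of its count is uncertain. A processed pseudogene listed as AC093724.2, named TOMM40P4 in the reference, stood at 7.23 to 8.21 FPKM in DMSO, 2.91 to 5.73 FPKM at 25 nM and 4.52 to 5.40 FPKM at 50 nM, and it fell at both doses (log2 fold change -0.91, limma adjusted p = 0.0060, and -0.70, limma adjusted p = 0.0172).

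The paralog TOMM40L had much less RNA per length than TOMM40, at 2.51 to 2.61 FPKM in DMSO, 2.18 to 2.34 FPKM at 25 nM and 2.08 to 2.17 FPKM at 50 nM. It fell at 50 nM (log2 fold change -0.24, SE 0.06, limma adjusted p = 0.00693) and was not called at 25 nM (log2 fold change -0.15, limma adjusted p = 0.0586), though it was there with libraries scaled to fragment totals or to equal FPKM sums and after the length correction (limma adjusted p from 0.0026 to 0.0302). Exons of NR1I3 on the other strand cover 20.1% of its exonic bases. TOMM7, a small subunit that stabilises the complex, stood at 99.4 to 107 FPKM in DMSO, at 124 to 146 FPKM at 25 nM and at 106 to 121 FPKM at 50 nM. It rose at 25 nM (log2 fold change 0.36, SE 0.07, limma adjusted p = 0.00270) and was not called at 50 nM (log2 fold change 0.15, 95% confidence interval -0.01 to 0.31, limma adjusted p = 0.101). It was called at 50 nM without the 25 nM replicate 3 (limma adjusted p = 0.0391), without the 50 nM replicate 1 (limma adjusted p = 0.0385) and with fragment totals (limma adjusted p = 0.0121).

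TOMM34 is a cytosolic co-chaperone of HSP70 and HSP90 rather than a pore subunit. It (ENSG00000025772, chromosome 20, 44942130-44960486) stood at 21.1, 21.7 and 20.02 FPKM in DMSO, at 29.2, 30.4 and 30.9 FPKM at 25 nM and at 24.8, 27.3 and 25.4 FPKM at 50 nM. No group overlapped another, with 25 nM highest. The log2 fold change was 0.52 (SE 0.05, limma adjusted p = 5.07e-05) at 25 nM and 0.30 (SE 0.05, limma adjusted p = 6.66e-04) at 50 nM, and the step from 25 to 50 nM was -0.22 (limma adjusted p = 0.00835). The rise at 50 nM was lost on the scale of equal FPKM sums (log2 fold change 0.13, limma adjusted p = 0.0606), and the step between doses was lost with fragment totals (-0.13, limma adjusted p = 0.0680).

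The opposite moves changed the proportions of TOM transcripts within each library, a measure that the scaling between libraries does not touch. The TOMM20 to TOMM40 ratio of FPKM was 11.3, 10.9 and 11.3 in the DMSO libraries, 6.49, 6.80 and 5.79 at 25 nM and 4.80, 5.22 and 5.61 at 50 nM. Every treated library was below every DMSO library, and the doses did not overlap. The TOMM70A to TOMM40 ratio was 1.23 ± 0.0350 with DMSO (SD, n = 3), 0.610 ± 0.0665 with 25 nM and 0.495 ± 0.0383 with 50 nM. The 6 genes of the TOM complex (TOMM20, TOMM22, TOMM70A, TOMM40, TOMM5 and TOMM7) summed to 347 ± 4.55 FPKM in DMSO, 376 ± 17.8 FPKM at 25 nM and 320 ± 16.8 FPKM at 50 nM, and to 172 ± 3.81, 219 ± 17.9 and 192 ± 10.9 FPKM without TOMM20 (SD, n = 3).

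**Figure D3:**
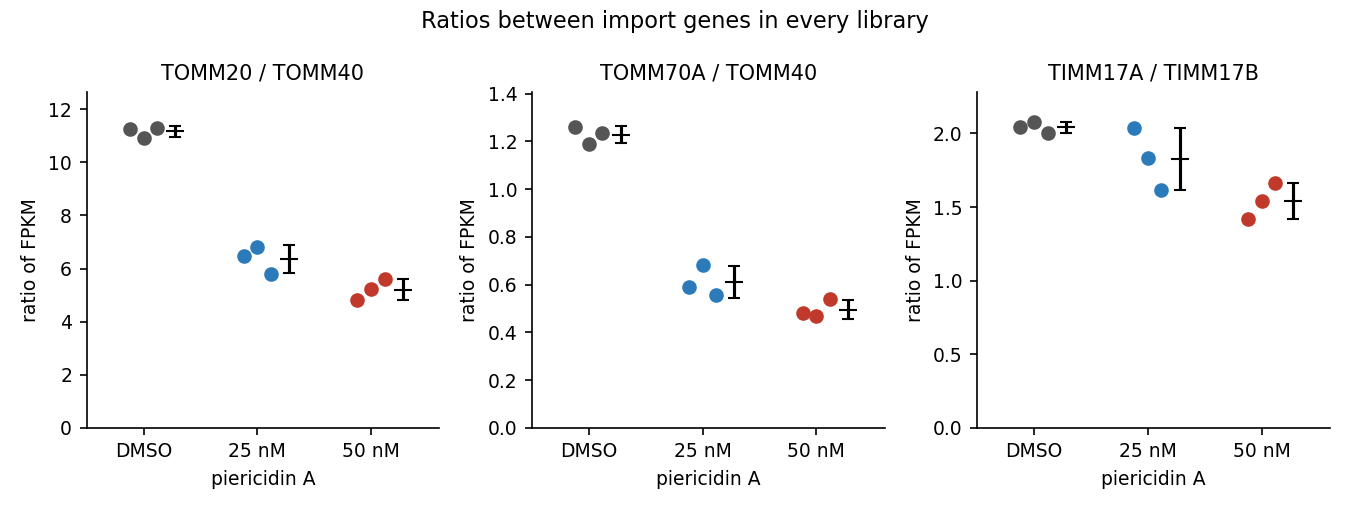
Ratio of FPKM between 2 genes (vertical axis, from 0) in every library of DMSO, 25 nM and 50 nM piericidin A. Dots are libraries, and the bar beside them is the mean with its SD (n = 3). TOMM20 to TOMM40 falls from 11.2 to 6.36 and 5.21, TOMM70A to TOMM40 from 1.23 to 0.610 and 0.495, and TIMM17A to TIMM17B from 2.04 to 1.83 and 1.54.

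In the TIM23 channel, TIMM23 is the pore-lining subunit. It (ENSG00000265354, chromosome 10, 45972449-46003734) stood at 55.0, 60.3 and 59.2 FPKM in DMSO, at 76.1, 76.6 and 85.8 FPKM at 25 nM and at 64.9, 72.3 and 75.6 FPKM at 50 nM. All treated libraries were above DMSO. The log2 fold change was 0.45 (SE 0.07, limma adjusted p = 6.84e-04) at 25 nM and 0.28 (SE 0.07, limma adjusted p = 0.00625) at 50 nM. The call at 50 nM was lost after the length correction (log2 fold change 0.02, limma adjusted p = 0.709) and on the scale of equal FPKM sums (log2 fold change 0.11, limma adjusted p = 0.0830). Its near copy TIMM23B (4.41 to 4.56 FPKM in DMSO, 4.50 to 5.32 FPKM at 25 nM, 5.81 to 6.28 FPKM at 50 nM) rose at 50 nM (log2 fold change 0.40, SE 0.07, limma adjusted p = 8.24e-04) and was not called at 25 nM (log2 fold change 0.08, limma adjusted p = 0.325). TIMM23B transcripts hold 17.0% of the 50-base words of TIMM23, so reads may be split between these genes and their separate values are uncertain.

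TIMM17A and TIMM17B encode alternative partners of TIMM23 in the channel, and they differed at the higher dose. TIMM17A (ENSG00000134375, chromosome 1, 201955491-201970661) stood at 14.8, 15.3 and 15.7 FPKM in DMSO, at 20.4, 19.4 and 20.9 FPKM at 25 nM and at 15.3, 16.7 and 18.2 FPKM at 50 nM. It was thus clear of DMSO at 25 nM and overlapped it at 50 nM. Its log2 fold change was 0.41 (SE 0.06, limma adjusted p = 6.91e-04) at 25 nM and 0.13 (95% confidence interval -0.01 to 0.27, limma adjusted p = 0.106) at 50 nM, and the fall from 25 to 50 nM was called (log2 fold change -0.28, limma adjusted p = 0.00968). Without the 50 nM replicate 1 it was called higher at 50 nM (log2 fold change 0.19, limma adjusted p = 0.0199), as it was when libraries were scaled to fragment totals (log2 fold change 0.20, limma adjusted p = 0.0136).

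TIMM17B (ENSG00000126768, chromosome X, 48893447-48898143) stood at 7.22, 7.36 and 7.84 FPKM in DMSO, at 10.03, 10.6 and 12.9 FPKM at 25 nM and at 10.8, 10.8 and 10.9 FPKM at 50 nM. Both doses were clear of DMSO. TIMM17B changed by a log2 fold change of 0.57 (SE 0.08, limma adjusted p = 5.34e-04) at 25 nM and 0.53 (SE 0.08, limma adjusted p = 5.45e-04) at 50 nM, and -0.04 between the doses (95% confidence interval -0.23 to 0.15). The TIMM17A to TIMM17B ratio was 2.01 to 2.08 in the DMSO libraries, 1.62 to 2.04 at 25 nM and 1.42 to 1.66 at 50 nM, so 50 nM was clear of DMSO and 25 nM overlapped both.

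TIMM50, the receptor that takes over presequences on the inner side, followed TIMM17B. It (ENSG00000105197, chromosome 19, 39480412-39493785) stood at 6.91, 6.46 and 7.49 FPKM in DMSO, at 9.38, 8.96 and 11.1 FPKM at 25 nM and at 9.60, 9.49 and 9.08 FPKM at 50 nM. Its log2 fold change was 0.49 (SE 0.08, limma adjusted p = 0.00112) at 25 nM and 0.43 (SE 0.08, limma adjusted p = 0.00164) at 50 nM, with all treated libraries above DMSO. At 6911 bases it was the longest of the 23 genes in the authors' table. TIMM44, which tethers the import motor to the channel, went from 3.98 to 4.60 FPKM in DMSO to 5.03 to 5.71 FPKM at 25 nM and 5.42 to 6.12 FPKM at 50 nM. It rose at both doses (log2 fold change 0.30, limma adjusted p = 0.00738, and 0.42, limma adjusted p = 9.34e-04), though on the scale of equal FPKM sums it was not called at 25 nM (log2 fold change 0.11, limma adjusted p = 0.262). TIMM21, which links the TIM23 and TOM complexes, was not called against DMSO at 25 nM (log2 fold change -0.13, limma adjusted p = 0.137) or 50 nM (0.10, limma adjusted p = 0.222). It was called lower at 25 nM on the scale of equal FPKM sums (-0.32, limma adjusted p = 0.00529) and higher at 50 nM after the length correction (0.20, limma adjusted p = 0.0231).

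**Figure D4:**
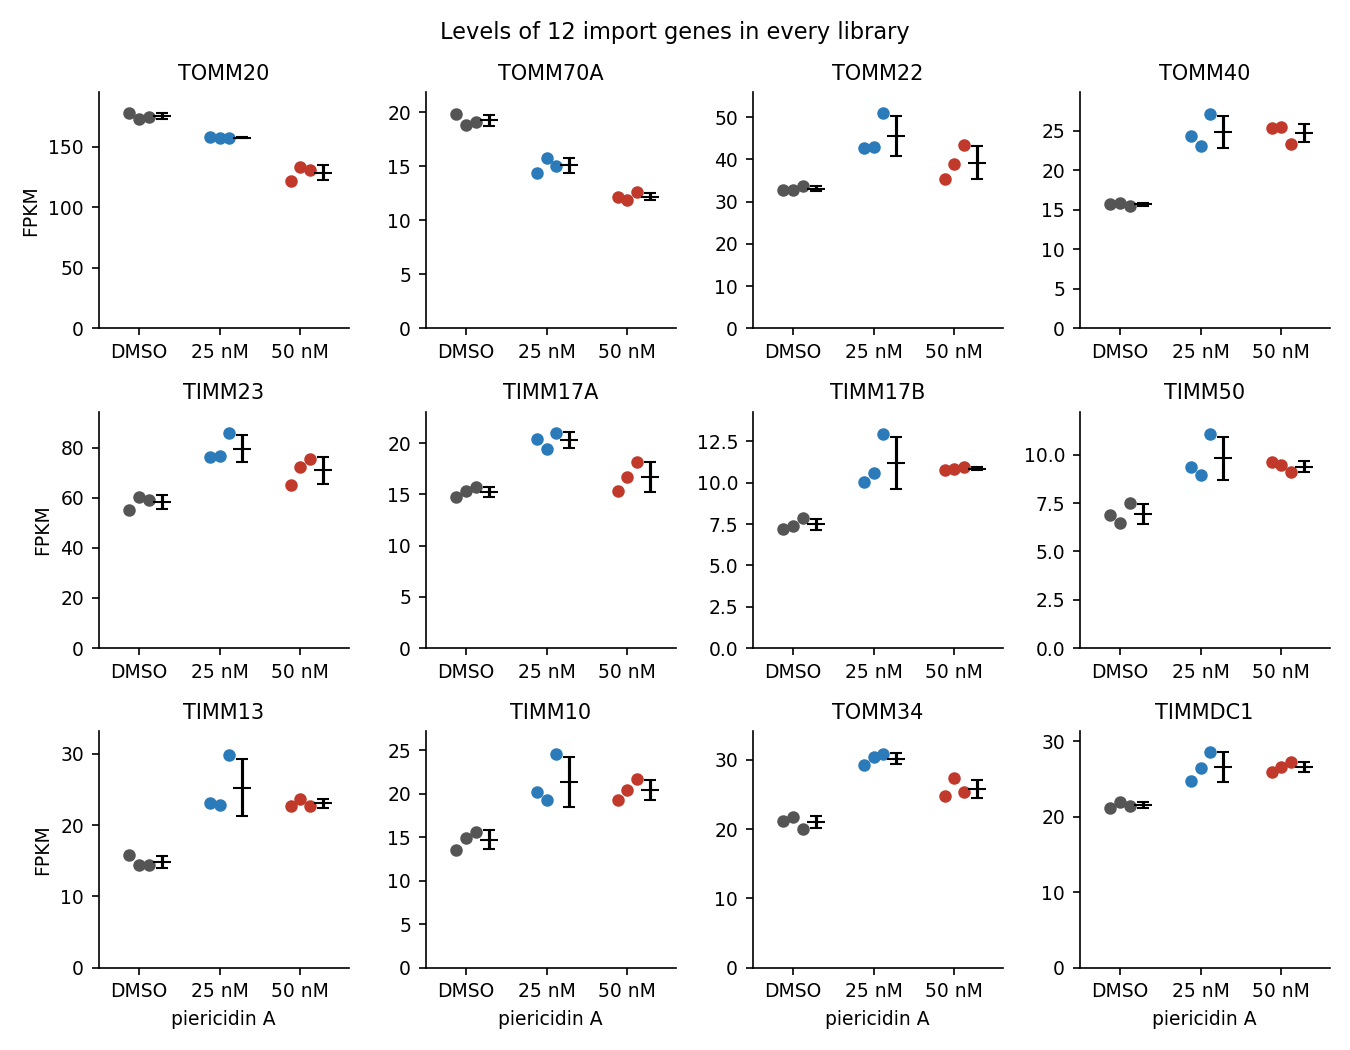
Deposited FPKM (vertical axis, from 0) of 12 import genes in every library of DMSO, 25 nM and 50 nM piericidin A. Dots are libraries, and the bar beside them is the mean with its SD (n = 3). TOMM20 and TOMM70A step down with dose, TOMM40, TIMM17B, TIMM50 and TIMM13 are raised alike at both doses, and TIMM17A at 50 nM overlaps DMSO.

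On the carrier route, TIMM22 is the core of the carrier translocase. It (ENSG00000177370, chromosome 17, 997117-1003671) stood at 8.10, 8.18 and 7.92 FPKM in DMSO, at 9.26, 9.41 and 10.3 FPKM at 25 nM and at 7.79, 8.80 and 8.32 FPKM at 50 nM. It was clear of DMSO at 25 nM alone (log2 fold change 0.26, SE 0.06, limma adjusted p = 0.00515), and at 50 nM it was not called (log2 fold change 0.04, limma adjusted p = 0.576). On the scale of equal FPKM sums the 25 nM value was not called (log2 fold change 0.06, limma adjusted p = 0.364) and the 50 nM value turned to a fall (log2 fold change -0.13, limma adjusted p = 0.0416). A further subunit of this translocase, known as TIMM29, is listed by the authors as C19orf52 and so falls outside the rule. C19orf52 held 6.31 to 7.93 FPKM over all libraries and was not called at 25 nM (log2 fold change -0.01, limma adjusted p = 0.940) or 50 nM (-0.03, limma adjusted p = 0.808).

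Of the 6 small TIM chaperones, 5 rose at 25 nM and 1 fell, where 26.3% of all tested genes rose and 25.8% fell, and 5 rose at 50 nM and 0 fell, where 29.2% rose and 31.5% fell. Some of these calls were lost on other scales, as given with each gene. Their summed level was 53.7 ± 1.06 FPKM in DMSO, 77.7 ± 7.77 FPKM at 25 nM and 72.4 ± 2.85 FPKM at 50 nM (SD, n = 3). TIMM13 (ENSG00000099800, chromosome 19, 2425624-2427894), the partner of TIMM8A, stood at 15.9, 14.4 and 14.3 FPKM in DMSO, at 23.0, 22.8 and 29.9 FPKM at 25 nM and at 22.7, 23.7 and 22.7 FPKM at 50 nM. All treated libraries were far above DMSO, and the 25 nM replicate 3 was highest. Its log2 fold change was 0.75 (SE 0.10, limma adjusted p = 2.45e-04) at 25 nM, the largest rise of the 22, and 0.63 (SE 0.10, limma adjusted p = 4.26e-04) at 50 nM. LMNB2 on the same strand shares 13.0% of its exonic bases and TMPRSS9 on the other strand 15.9%, so part of its count may belong to these genes.

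TIMM10 and TIMM9 form the main chaperone ring for carriers. TIMM10 (ENSG00000134809, chromosome 11, 57528463-57530803) stood at 13.5, 14.9 and 15.7 FPKM in DMSO, at 20.2, 19.3 and 24.6 FPKM at 25 nM and at 19.3, 20.4 and 21.7 FPKM at 50 nM, with no treated library in the DMSO range. Its log2 fold change was 0.53 (SE 0.09, limma adjusted p = 0.00136) at 25 nM and 0.47 (SE 0.09, limma adjusted p = 0.00190) at 50 nM. At 777 bases it is the shortest of the 23 genes, and after the length correction the 50 nM value was not called (log2 fold change 0.04, limma adjusted p = 0.671). TIMM9 stood at 7.34 to 7.93 FPKM in DMSO, at 9.56 to 10.1 FPKM at 25 nM and at 8.51 to 8.89 FPKM at 50 nM. It rose at 25 nM (log2 fold change 0.35, limma adjusted p = 2.78e-04) and at 50 nM (0.18, limma adjusted p = 0.00924), neither of which was called after the length correction (0.15, limma adjusted p = 0.0645, and -0.02, limma adjusted p = 0.799) or on the scale of equal FPKM sums (0.16, limma adjusted p = 0.0850, and 0.0034, limma adjusted p = 0.970). Exons of other genes on the other strand cover 30.5% of its exonic bases.

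TIMM8A, whose loss causes deafness-dystonia syndrome, stood at 1.90 to 2.23 FPKM in DMSO, 2.53 to 2.81 FPKM at 25 nM and 2.41 to 2.89 FPKM at 50 nM. It rose at both doses (log2 fold change 0.36, limma adjusted p = 0.00912, and 0.35, limma adjusted p = 0.00951), and neither rise was called on the scale of equal FPKM sums (0.17, limma adjusted p = 0.124, and 0.18, limma adjusted p = 0.0974). Its paralog TIMM8B, at 11.2 to 12.1 FPKM in DMSO, 15.2 to 17.3 FPKM at 25 nM and 13.5 to 15.6 FPKM at 50 nM, rose at both (0.49, limma adjusted p = 3.37e-04, and 0.34, limma adjusted p = 0.00170). SDHD and NKAPD1 on the other strand cover 32.3% of its exonic bases, and its 50 nM rise was not called after the length correction (0.07, limma adjusted p = 0.310). TIMM10B, which docks the chaperones at TIMM22, was the chaperone gene that fell at 25 nM, from 2.48 to 3.32 FPKM to 2.09 to 2.48 FPKM (log2 fold change -0.31, limma adjusted p = 0.0378). Those groups met at 2.48 FPKM, and the call was lost without DMSO replicate 1 or 3, without the 25 nM replicate 1 or 2 or without the 50 nM replicate 2 or 3 (limma adjusted p from 0.0503 to 0.131). AC084337.2 on the same strand shares 13.55% of its exonic bases. At 50 nM TIMM10B was at 2.72 to 3.03 FPKM (log2 fold change 0.03, limma adjusted p = 0.836).

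TIMMDC1 shares the gene family's name but its product is an assembly factor of complex I, the target of piericidin A. It (ENSG00000113845, chromosome 3, 119498532-119525090) stood at 21.2, 22.0 and 21.5 FPKM in DMSO, at 24.7, 26.5 and 28.6 FPKM at 25 nM and at 25.9, 26.7 and 27.3 FPKM at 50 nM. Every treated library was above every DMSO library. TIMMDC1 had a log2 fold change of 0.30 at each dose (SE 0.05, limma adjusted p = 0.00139 at 25 nM and 9.49e-04 at 50 nM), and 0.0037 between the doses with a 95% confidence interval of -0.12 to 0.12. CD80 on the other strand covers 29.2% of its exonic bases.

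**Figure D5:**
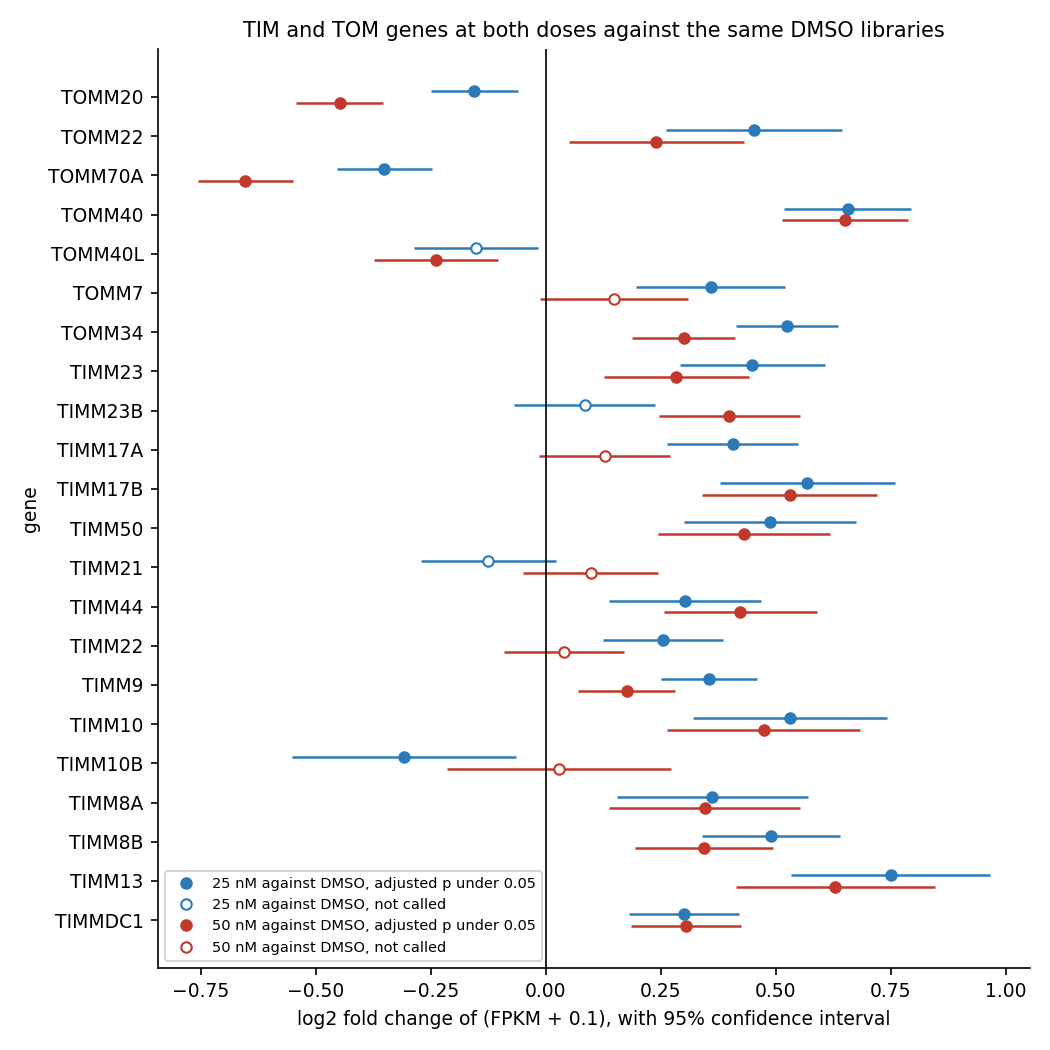
Log2 fold change of (FPKM + 0.1) for the 22 tested genes (vertical axis) at 25 nM (blue) and 50 nM (red) against the same DMSO libraries, with 95% confidence intervals of the limma fit. Filled points have an adjusted p under 0.05. TOMM20 and TOMM70A lie left of 0 and further left at 50 nM, while most of the others lie right of 0.

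The direct comparison of the doses called 7 genes lower and 3 higher at 50 nM than at 25 nM, where 18.8% of all tested genes were lower and 14.7% higher (33.5% in either direction). The libraries of the doses did not overlap in 9 genes that were lower and 3 that were higher at 50 nM, against 24.4% and 21% of all tested genes (45.4% together). The 7 were TOMM20, TOMM70A, TOMM34, TOMM7, TIMM17A, TIMM22 and TIMM9, and the 3 were TIMM23B, TIMM21 and TIMM10B. In 14 of the 22 genes the mean was highest at 25 nM, in 3 (TIMM23B, TIMM44 and TIMMDC1) it was higher at each dose, and in 3 (TOMM20, TOMM70A and TOMM40L) it was lower at each dose. These are orders of means, and TIMMDC1 for one did not differ between the doses beyond its spread. They were counted for these genes only, so the shares over all genes are not given. The median log2 fold change between the doses was -0.10 in the 22 genes and -0.065 in coding genes. With fragment totals it was -0.0072 in the 22 genes and 0.08 over all tested genes. Without the 25 nM replicate 3 the difference between the doses changed sign in TOMM40, TIMM17B, TIMM50, TIMM10, TIMM8A and TIMM13, none of which was called with or without that library. The falls of TOMM20, TOMM70A and TIMM17A and the rise of TIMM23B were called under every alternative run, leaving aside the filter of 5 FPKM. The fall of TOMM7 (log2 fold change -0.21, limma adjusted p = 0.0493) was lost without any 1 library other than the 25 nM replicate 2. That of TIMM22 (-0.22, limma adjusted p = 0.0196) was lost without the 50 nM replicate 1. That of TIMM9 (-0.18, limma adjusted p = 0.0175) was lost without the 25 nM replicate 1 or the 50 nM replicate 1. The rise of TIMM21 (0.22, limma adjusted p = 0.0280) was lost without the 25 nM replicate 1 or the 50 nM replicate 1 or 2. The rise of TIMM10B (0.34, limma adjusted p = 0.0393) was lost without DMSO replicate 1 or any 1 of 5 treated libraries. Scaled to fragment totals, 4 genes were higher and 3 (TOMM20, TOMM70A and TIMM17A) lower, where 20.3% of all tested genes were higher and 8.74% lower.

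Of 27 other genes of the import pathway, 25 were tested, and DNAJC15 and DNLZ, partners of the motor, were below the filter. At 25 nM 11 rose and 2 fell, against 26.3% and 25.8% of all tested genes, with a median log2 fold change of 0.22 against 0.02. At 50 nM 10 rose and 4 fell, against 29.2% and 31.5%, with a median of 0.12 against 0.0049. On the scale of equal FPKM sums 8 rose and 7 fell at 25 nM (32% and 28% of the 25), where 14.2% of all tested genes rose and 40.2% fell. On that scale 4 rose and 9 fell at 50 nM (16% and 36% of the 25), where 20.4% of all tested genes rose and 43.2% fell. The values of the genes named below are on the deposited FPKM, and their calls on that scale are not given. HSPE1 and HSPD1 encode the matrix chaperonin. HSPE1 went from 7.997 to 8.47 FPKM in DMSO to 28.7 to 39.7 FPKM at 25 nM (log2 fold change 2.01, SE 0.10, limma adjusted p = 2.38e-06) and 27.98 to 31.5 FPKM at 50 nM (1.82, limma adjusted p = 1.74e-06). It held 428 to 489 fragments per DMSO library, where HSPD1 held 18999 to 20855. Overlap with other genes was searched for the TIM and TOM genes only, so its part in the values of these other import genes was not tested. HSPD1 rose from 167 to 172 FPKM in DMSO to 241 to 246.5 FPKM at 25 nM (log2 fold change 0.525, limma adjusted p = 1.91e-05) and to 188.5 to 205 FPKM at 50 nM (0.22, limma adjusted p = 0.00124). HSPA9, the HSP70 of the import motor, stood at 56.0 to 59.3 FPKM in DMSO and 70.1 to 75.3 FPKM at 25 nM (log2 fold change 0.33, SE 0.04, limma adjusted p = 1.93e-04). At 50 nM it stood at 64.5 to 66.8 FPKM (0.19, limma adjusted p = 0.00295), below 25 nM (-0.14, limma adjusted p = 0.0258).

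The nucleotide exchange factors of that motor moved the other way at 50 nM. GRPEL1 went from 11.0 to 11.1 FPKM in DMSO to 8.20 to 9.11 FPKM at 50 nM (log2 fold change -0.33, SE 0.05, limma adjusted p = 5.83e-04), and GRPEL2 from 4.69 to 4.99 FPKM to 3.26 to 4.02 FPKM (-0.42, SE 0.08, limma adjusted p = 0.00135). The subunits of the presequence peptidase also parted at 50 nM. PMPCA rose (log2 fold change 0.57, SE 0.07, limma adjusted p = 1.65e-04), as it had at 25 nM (0.44, limma adjusted p = 0.00115), and PMPCB fell (-0.27, SE 0.05, limma adjusted p = 0.00103). GFER, the oxidase of the intermembrane space relay, rose at 50 nM (0.42, SE 0.06, limma adjusted p = 2.79e-04). At 25 nM the genes that fell were MTX3, of the outer membrane assembly machinery (-0.36, SE 0.09, limma adjusted p = 0.00940), and the peptidase gene XPNPEP3 (-0.28, SE 0.08, limma adjusted p = 0.0197). Between the doses 1 gene was higher at 50 nM, the motor subunit gene PAM16 (log2 fold change 0.89, SE 0.21, limma adjusted p = 0.0115), at 0.764 to 1.36 FPKM at 25 nM and 1.68 to 2.37 FPKM at 50 nM. From 0.574 to 0.805 FPKM in DMSO, PAM16 rose at 50 nM by a log2 fold change of 1.35 (limma adjusted p = 5.05e-04). The 8 that were lower included HSPD1 (-0.30), GRPEL1 (-0.31) and the peptidase gene MIPEP (-0.28), with limma adjusted p of 0.00104, 0.00285 and 0.00330. These counts were 4% and 32% of the 25 tested, where 14.7% of all tested genes were higher and 18.8% lower.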

How the data were processed

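RNA of 9 ACHN libraries was sequenced in 3 groups of 3. Per the submitters' processing notes the genome build was hg38. Which aligner, counter, annotation, RNA selection and strandedness the authors used is not given in the sources used here. FPKM for 30673 genes were deposited in a table whose name speaks of read counts. A further deposited table holds log2 FPKM for the 18859 genes above 0 in all 9 libraries, equal to the first within 0.005, with symbol, position and length. FPKM times length was a whole multiple of 1 step per library for 100% of these genes (tolerance 0.01), which gave fragments for depth and for 2 alternatives.

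The test was limma 3.58.1 (R 4.3.3; lmFit and eBayes, robust and with a trend), run on log2(FPKM + 0.1), with all 9 libraries and group as the only covariate. The 15541 genes that reached 0.5 FPKM in 3 or more libraries were tested, with Benjamini-Hochberg adjustment. The fit was tested on simulated data. Alternatives were other pseudocounts and filters, scaling to fragment totals or to equal FPKM sums, a correction for gene length within each library, limma voom on the recovered fragments, the replicate number as a block and leaving out each library. Members and lists were chosen with earlier results of these data known. All TIMM and TOMM genes are named. The genes with a value for every library are the 5 largest called changes in each direction at a mean of at least 5 FPKM, the receptor, pore and channel genes and TIMMDC1. Up to 3 other import genes per direction are named, those with the smallest p. Exon overlap and 50-base words came from GENCODE release 29, and promoters from RefSeq (GRCh38.p14). Same-numbered replicates were not paired by the labels.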

Additional observations from a re-analysis of the deposited data

How the results depend on the processing

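Of 1242 alternative values of single TIM and TOM genes from 19 other fits, 1154 stayed on their side of the threshold, 64 lost the call, 22 gained a call and 2 reversed with a call involved. Of the 1154, 36 changed sign, all of them values not called either way. The reversed values were TIMM22 at 50 nM with equal FPKM sums (log2 fold change -0.13) and TIMM9 at 50 nM after the length correction (-0.020). With equal FPKM sums 5 TIM and TOM genes fell at 25 nM and 9 rose at 50 nM, and of other import genes 7 fell at 25 nM, 4 rose and 9 fell at 50 nM, and 3 were higher at 50 than at 25 nM. On that scale 40.2% of all tested genes fell at 25 nM, and 20.4% rose and 43.2% fell at 50 nM. Between the doses 13.7% were higher at 50 nM. This scaling moves the median of all genes by over 0.1 at each dose against DMSO, not between the doses. Scaled to fragment totals, 3 TIM and TOM genes were lower at 50 than at 25 nM, and of other import genes 4 were lower and 4 higher. Of all tested genes 8.74% were then lower and 20.3% higher. Between the doses 1 TIM or TOM gene was higher with no filter and 1 with a 5 FPKM filter, which left 0 other import genes higher, and 0 lower at 25 nM against DMSO. Of all genes tested 7.06% were higher between the doses with no filter and 12.8% with the 5 FPKM filter. With the latter 32.7% were lower at 25 nM. After the length correction 1 other import gene fell at 25 nM and 2 were higher at 50 than at 25 nM, as were 2 with limma voom and 2 with the replicate block. Of all genes tested 25.4% fell at 25 nM after the length correction. Higher between the doses were 17.2% with that correction, 17.6% with limma voom and 13.1% with the replicate block. Without both replicate 3 libraries of the treated groups, an alternative chosen after seeing the data, 4 other import genes and 15.2% of all tested genes were higher. For these counts the cause was not tested, except that the 5 FPKM filter tests fewer genes.

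With 1 library left out at a time, 16 TIM and TOM genes rose at 25 nM in every fit and 1 to 3 fell. At 50 nM 13 to 16 rose and 3 fell in every fit, and between the doses 1 to 3 were higher and 4 to 7 lower. The count of 1 that fell at 25 nM came without DMSO replicate 1. The count of 1 higher between the doses came without the 25 nM replicate 1, the 50 nM replicate 1 or the 50 nM replicate 2, and that of 4 lower without the 50 nM replicate 1. The other import genes ranged from 10 to 14 higher and 1 to 2 lower at 25 nM, 8 to 12 higher and 4 to 5 lower at 50 nM, and 1 to 4 higher and 5 to 9 lower between the doses, with 4 higher without the 25 nM replicate 3 and 5 lower without replicate 1 of either dose. Of these genes 1 fell at 25 nM without DMSO replicate 3 or the 25 nM replicate 1 or 2. Same-numbered libraries did not deviate together (correlations of -0.047 to 0.079), and the replicate block gave 16 and 14 rises of TIM and TOM genes, the same counts as without it, and 2 higher and 8 lower between the doses. With the block 25.0% and 28.4% of all tested genes rose at 25 and 50 nM. Between the doses 13.1% were then higher and 16.4% lower.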
